A study of Mus musculus with 36 samples.

Results

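Macrophage genes and the 3 genes of complement C1q were followed through cells sorted from mouse skeletal muscle: Csf1r, Cd14, Mrc1, Fcer1g, Ptprc, Cd68, Lyz2, C1qa, C1qb and C1qc. These 10 genes, of 52636 in the count table, were the ones whose Ensembl identifier belongs to one of those symbols. The study sorted S100β-GFP+;NG2-dsRed+ perisynaptic Schwann cells (PSCs, the Schwann cells that cap the neuromuscular junction) from muscle by FACS, and beside them Schwann cells with S100β-GFP alone and cells with NG2-dsRed alone, and compared their RNA by RNA-seq. Every mouse carried both transgenes, one with GFP under the S100b promoter, B6;D2-Tg(S100b-EGFP)1Wjt/J, and one with dsRed under the promoter of Cspg4, the gene of NG2, Tg(Cspg4-DsRed.T1)1Akik/J. The cells came from diaphragm, pectoralis, forelimb and hindlimb muscles of juvenile mice, of postnatal day 15 to 21 by the methods. The paper's results give a slightly later upper day. The upper day in the labels instead rises with the library number from 21 to 46 at library 26 and stays at 46 after it. The age of single mice is therefore uncertain. A library held the cells of 1 mouse. The labels name 36 libraries, and 27 had a column of counts (8 of S100β-GFP+ cells, 9 of PSCs, 10 of NG2-dsRed+ cells), with between 5221655 and 9592875 counts on genes each.

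Macrophages are resident phagocytes of muscle. They need signals through the receptor CSF1R to live, and they sense and take up debris and microbes with receptors such as CD14, the mannose receptor and Fc receptors. C1q is the recognition molecule that starts the classical complement pathway, assembled from the A, B and C chains that C1qa, C1qb and C1qc encode, and tissue macrophages are among its main producers. In the nervous system C1q and microglia, the macrophages of the brain, are known for tagging and removing synapses during development.

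All 10 genes were highest in S100β-GFP+ cells and far lower in both other cell types. By edgeR's quasi-likelihood test, 10 of 10 were higher in S100β-GFP+ cells than in PSCs (adjusted p from 7.10e-14 to 3.84e-08), by 26.8-fold for Lyz2 to 627-fold for C1qb. Of all 15330 genes tested, 24.1% were higher in S100β-GFP+ cells in that comparison and 22.9% lower (47% in all). Against NG2-dsRed+ cells 10 of 10 were also higher (adjusted p from 1.05e-12 to 6.16e-10), by 35.2-fold for Cd68 to 168-fold for Lyz2, where 18.1% of all genes tested were and 33.3% differed in one direction or the other. These comparisons share the S100β-GFP+ libraries. For each of the 10 genes the lowest S100β-GFP+ library stood above the highest of the other 19 libraries, which held for 4.92% of all genes tested (10.3% against PSCs and 7.21% against NG2-dsRed+ cells alone). Of the counts of an S100β-GFP+ library, the 10 genes made up 0.111% to 1.07% (median 0.639%). The share was 0.00472% to 0.0612% in PSCs and 0.00151% to 0.00842% in NG2-dsRed+ cells. In RNA of sorted pools, fewer cells of a type and less RNA per cell cannot be told apart.

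**Figure D1:**
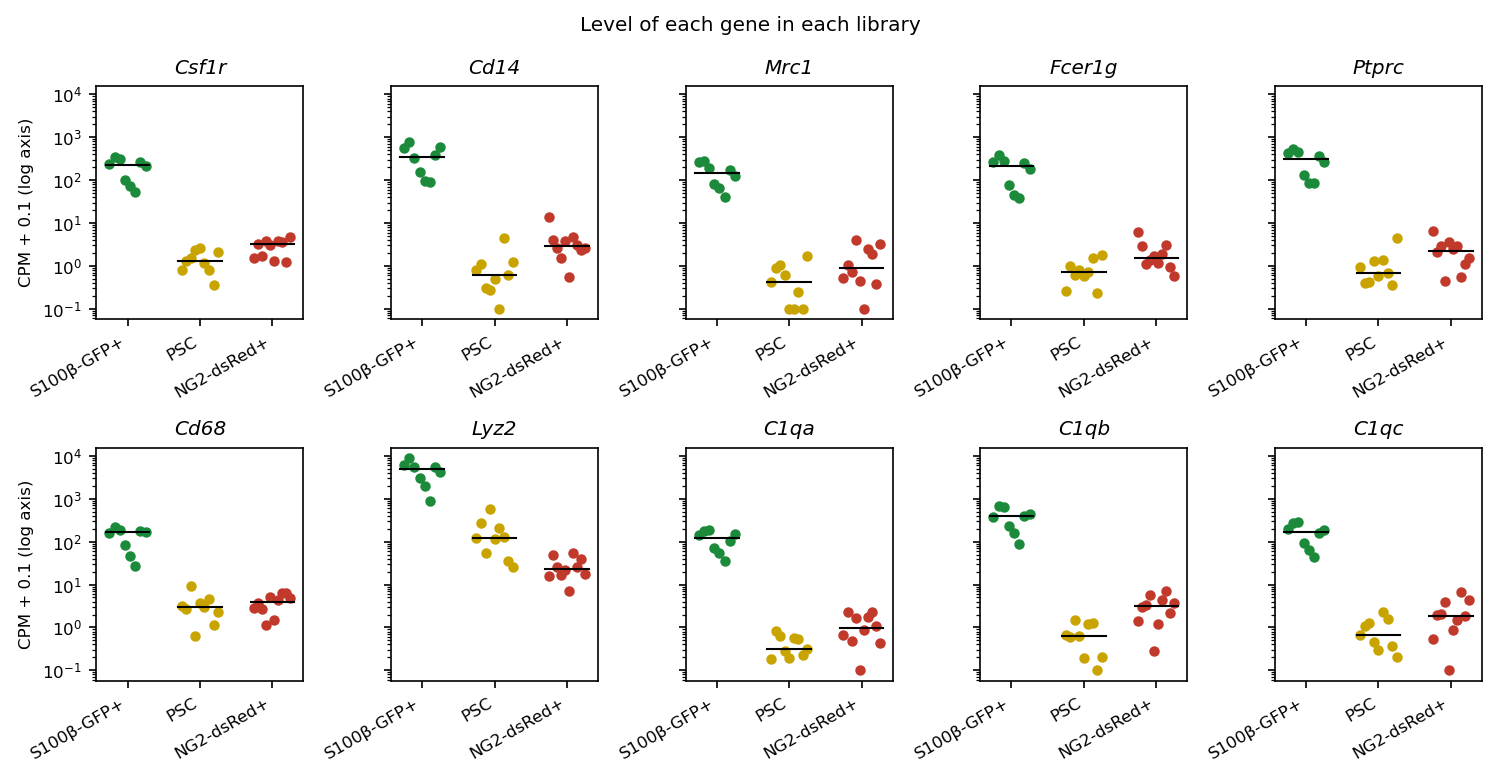
Level of each of the 10 genes in each of the 27 libraries, as CPM (a gene's counts scaled by the TMM-normalized size of its library) plus 0.1 on a log axis, with 1 point per library and a line at the median of each cell type. In every panel all 8 S100β-GFP+ libraries lie above all PSC and NG2-dsRed+ libraries, and only Lyz2 has PSC libraries well above 10 CPM.

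Before the genes are taken one by one, the sorted cells and libraries need a description. Sox10, a transcription factor of the Schwann lineage, was highest in PSCs, with a median of 467 CPM, against 16.9 CPM in S100β-GFP+ libraries and 3.91 CPM in NG2-dsRed+ libraries. The S100β-GFP+ libraries had the highest medians of fibroblast transcripts, Col1a1 at a median of 9187 CPM and Dcn at 3774 CPM, and Rgs5, a gene of pericytes, was at 5400 CPM in NG2-dsRed+ libraries. S100β-GFP+ libraries 14, 17 and 22 stood apart from the other 5: between 462 and 1261 olfactory receptor genes had a count in them, against 107 to 214 in the other 5. Between 3.64% and 40.0% of a library's counts fell on 3 genes, Lars2, Gm23935 and Gm15564.

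The surface receptors came first among the genes of macrophage identity. Csf1r, on chromosome 18, encodes the receptor for the growth factors CSF1 and IL-34. It was at 52.8 CPM in the lowest, 226 CPM in the median and 342 CPM in the highest S100β-GFP+ library, at 0.259, 1.21 and 2.49 CPM in PSCs and at 1.13, 3.06 and 4.69 CPM in NG2-dsRed+ cells. The 10254 counts over the 8 S100β-GFP+ libraries compare with 107 over the 9 PSC libraries and 177 over the 10 NG2-dsRed+ libraries. Neither of the other cell types had a library near the lowest S100β-GFP+ library. On the log2 scale the difference was 7.18 ± 0.44 (SE) to PSCs (edgeR, adjusted p = 1.36e-13) and 6.19 ± 0.40 to NG2-dsRed+ cells (adjusted p = 1.31e-12). The annotation has Hmgxb3 on the opposite strand overlapping Csf1r, so with the strand setting of the counting not given, reads of the overlap cannot be assigned to one of them. Mir6983 also overlaps Csf1r, on the same strand.

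Cd14, also on chromosome 18, encodes the co-receptor that hands bacterial lipopolysaccharide to TLR4. Its lowest, median and highest levels were 89.5, 355 and 785 CPM in S100β-GFP+ libraries, 0, 0.519 and 4.29 CPM in PSCs and 0.463, 2.81 and 13.6 CPM in NG2-dsRed+ libraries. One PSC library had no Cd14 count at all. The log2 difference was 8.65 ± 0.70 to PSCs (adjusted p = 2.63e-11) and 6.61 ± 0.60 to NG2-dsRed+ cells (adjusted p = 6.16e-10) by edgeR's quasi-likelihood test. Without PSC library 31 the difference to PSCs was 9.37.

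Mrc1, at chromosome 2, 14229392 to 14332057 of GRCm38, encodes the mannose receptor CD206, a scavenging receptor that is typical of tissue-resident macrophages. Libraries of S100β-GFP+ cells had 39.5, 149 and 279 CPM at the lowest, the median and the highest, PSC libraries 0, 0.315 and 1.58 CPM and NG2-dsRed+ libraries 0, 0.789 and 3.92 CPM. In 3 of the 9 PSC libraries it had no count, and the 40 counts over all PSC libraries compare with 8001 over the S100β-GFP+ libraries. By edgeR, S100β-GFP+ cells were higher by 8.21 ± 0.66 log2 units than PSCs (adjusted p = 1.99e-11) and by 6.80 ± 0.58 than NG2-dsRed+ cells (adjusted p = 1.74e-10). Mir511 overlaps Mrc1 on the same strand, so reads of the overlap cannot be assigned to one of them.

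Fcer1g, at chromosome 1, 171229572 to 171234365, encodes the signalling gamma chain shared by Fc receptors. It had 38.3, 214 and 383 CPM in the lowest, median and highest S100β-GFP+ library, 0.130, 0.626 and 1.68 CPM in PSCs and 0.485, 1.41 and 6.24 CPM in NG2-dsRed+ cells, with no overlap of the S100β-GFP+ libraries with either. The log2 difference was 7.99 ± 0.58 to PSCs (edgeR, adjusted p = 2.69e-12) and 6.53 ± 0.51 to NG2-dsRed+ cells (adjusted p = 3.28e-11).

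Ptprc, at chromosome 1, 138062861 to 138175708, encodes CD45, the phosphatase on the surface of nearly all white blood cells. Its levels at the lowest, median and highest library were 85.7, 316 and 541 CPM in S100β-GFP+ cells, 0.259, 0.572 and 4.32 CPM in PSCs and 0.356, 2.18 and 6.38 CPM in NG2-dsRed+ cells. PSC library 36, with the 4.32 CPM, lay apart from the other 8 PSC libraries but far below the S100β-GFP+ libraries. S100β-GFP+ cells were higher by 8.08 ± 0.61 log2 units than PSCs (edgeR, adjusted p = 6.94e-12) and by 6.97 ± 0.55 than NG2-dsRed+ cells (adjusted p = 4.75e-11). Without PSC library 36 the difference to PSCs was 8.80. A130071D04Rik overlaps Ptprc on the same strand, so reads of the overlap cannot be assigned to one of them.

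The lysosomal genes had the smallest differences to PSCs. Cd68, at chromosome 11, 69664213 to 69666153, encodes a glycoprotein of lysosomes and endosomes that is abundant in phagocytes. It was at 27.0, 164 and 218 CPM in the lowest, median and highest S100β-GFP+ library, at 0.526, 2.82 and 8.97 CPM in PSCs and at 1.07, 3.89 and 6.24 CPM in NG2-dsRed+ cells. Cd68 was thus detected in all 27 libraries, with 269 counts over the PSC libraries and 252 over the NG2-dsRed+ libraries. The log2 difference of S100β-GFP+ cells was 5.33 ± 0.46 to PSCs (edgeR, adjusted p = 8.30e-11) and 5.14 ± 0.44 to NG2-dsRed+ cells (adjusted p = 1.72e-10).

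Lyz2, at chromosome 10, 117277331 to 117282321, encodes lysozyme M, a bacterial cell wall-degrading enzyme that is made in bulk by macrophages and neutrophils. It was the most abundant of the 10, at 868, 4897 and 8898 CPM in the lowest, median and highest S100β-GFP+ library. In PSCs it ranged from 25.5 to 566 CPM (median 123) and in NG2-dsRed+ cells from 7.10 to 54.4 CPM (median 23.3). S100β-GFP+ cells were higher by 4.74 ± 0.56 log2 units than PSCs (edgeR, adjusted p = 3.84e-08) and by 7.39 ± 0.60 than NG2-dsRed+ cells (adjusted p = 7.51e-11). Lyz1, its near copy next to it at 117287797 to 117292868, was looked at after these values were seen and was at 381 CPM in the median S100β-GFP+ library, 11.0 CPM in PSCs and 0.843 CPM in NG2-dsRed+ libraries. Counts of Lyz2 were between 7.53 and 18.5 times those of Lyz1 in S100β-GFP+ libraries between 7.89 and 13.8 times in PSC libraries and between 11.5 and 99 times in NG2-dsRed+ libraries, which had 66 Lyz1 counts in all, and it is not known how reads shared by the copies were assigned, so both levels are uncertain.

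**Figure D2:**
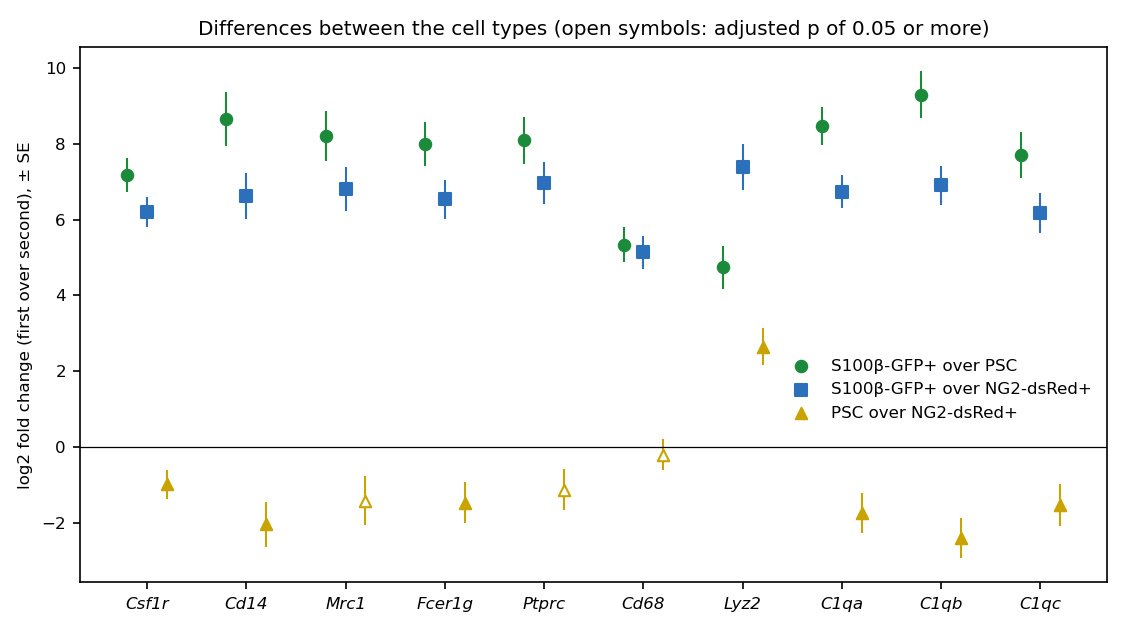
Log2 fold changes of the 10 genes with their SE in the 3 comparisons, from 1 edgeR fit of all 27 libraries, with open symbols for an adjusted p of 0.05 or more. S100β-GFP+ over PSC values run from 4.74 to 9.29 and S100β-GFP+ over NG2-dsRed+ values from 5.14 to 7.39, while PSC over NG2-dsRed+ values lie between -2.39 and 2.65.

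The 3 C1q genes lie side by side on the minus strand of chromosome 4 of GRCm38, C1qb at 136880129 to 136886187, C1qc at 136889804 to 136893065 and C1qa at 136895917 to 136898803, and no other annotated gene overlaps them. Few reads of them were found in PSCs: over the 9 PSC libraries C1qa had 24 counts, C1qb 45 and C1qc 59. RefSeq (GRCm38.p6) gave windows from 250 bases before to 50 bases after a transcription start for 7 of the 10 genes, which include C1qb and C1qc. Since the genes moved together, the windows were searched on both strands for AGGAAGT, the letters of a site that PU.1, the product of Spi1, and other ETS factors bind. The letters were chosen with these sequences in view. They were present for 5 of the 7 genes (Ptprc, Mrc1, C1qb, C1qc and Lyz2) and absent from the windows of Cd68 and Fcer1g, and 10.7% of the 27025 genes with a window held them. The stretches that lie before the annotated start are shown in the direction of the gene, with the match in capitals, read as its reverse complement ACTTCCT, for C1qb (chr4:136886207-136886293, minus strand), C1qc (chr4:136893066-136893149, minus strand), Lyz2 (chr10:117282326-117282412, minus strand) and Mrc1 (chr2:14229164-14229249, plus strand). Each match is a description of the letters only.
C1qb: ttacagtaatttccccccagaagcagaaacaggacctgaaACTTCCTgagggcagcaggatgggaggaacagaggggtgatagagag
C1qc: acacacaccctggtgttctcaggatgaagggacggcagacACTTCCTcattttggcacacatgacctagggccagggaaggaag
Lyz2: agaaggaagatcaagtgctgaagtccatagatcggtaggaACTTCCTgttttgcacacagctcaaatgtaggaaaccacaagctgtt
Mrc1: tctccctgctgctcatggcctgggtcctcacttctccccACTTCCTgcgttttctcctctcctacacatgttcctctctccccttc

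C1qa, the A chain, was at 35.1, 123 and 185 CPM in the lowest, median and highest S100β-GFP+ library, at 0.0788, 0.211 and 0.706 CPM in PSCs and at 0, 0.881 and 2.20 CPM in NG2-dsRed+ cells. C1qb, the B chain, was at 88.5, 390 and 670 CPM in S100β-GFP+ libraries, at 0, 0.526 and 1.36 CPM in PSCs and at 0.175, 3.07 and 7.00 CPM in NG2-dsRed+ libraries. C1qc, the C chain, was at 44.1, 170 and 293 CPM in S100β-GFP+ libraries, at 0.105, 0.552 and 2.19 CPM in PSCs and at 0, 1.79 and 6.54 CPM in NG2-dsRed+ libraries. No PSC or NG2-dsRed+ library came near the S100β-GFP+ range of any chain. Against PSCs the log2 differences were 8.47 ± 0.50 for C1qa (edgeR, adjusted p = 7.10e-14), 9.29 ± 0.61 for C1qb (adjusted p = 4.70e-13) and 7.69 ± 0.60 for C1qc (adjusted p = 1.31e-11). Against NG2-dsRed+ cells they were 6.73 ± 0.43 for C1qa (adjusted p = 1.05e-12), 6.90 ± 0.51 for C1qb (adjusted p = 1.52e-11) and 6.16 ± 0.53 for C1qc (adjusted p = 1.84e-10).

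Within the S100β-GFP+ libraries the chains kept close proportions. Per kilobase of exon, C1qb was between 2.41 and 3.64 times C1qa (median 2.96) and C1qc between 0.638 and 0.853 times C1qa (median 0.740), although each chain varied by 5.28-fold or more between libraries. Exon lengths are those of all annotated exons of a gene joined (1040 bases for C1qa, 1088 for C1qb and 1931 for C1qc), which can exceed the transcripts in use. On that scale the order of median levels in S100β-GFP+ cells was Lyz2 (3721 CPM per kilobase), C1qb (359), Fcer1g (244), Cd14 (205), Cd68 (131), C1qa (118), C1qc (87.9), Csf1r (39.2), Mrc1 (23.4) and Ptprc (17.3). Only the first neighbours, Lyz2 and C1qb, had ranges that did not overlap. Fcer1g exceeded Cd14 in 2 of 8 libraries and Cd68 exceeded C1qa in 2 of 8, so these neighbours have no settled order, whereas C1qa exceeded C1qc and C1qc exceeded Csf1r in 8 of 8.

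PSCs and NG2-dsRed+ cells were compared at levels where most of the genes had few counts. Only 5 of the 10 genes, Lyz2, Cd14, Csf1r, C1qc and Cd68, passed the filter on low counts in these cell types alone. With only these libraries in the fit Lyz2 and Cd14 differed. In the fit of all libraries 7 of the 10 were past the threshold, where 44% of all genes tested were (20.9% higher and 23.1% lower in PSCs), but C1qa, C1qb and Fcer1g among the 7 entered the test only through the S100β-GFP+ libraries, so nothing is read from that count.

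By edgeR's fit of all libraries, Lyz2 was higher in PSCs by 2.65 ± 0.49 log2 units (adjusted p = 5.32e-05), with the PSC range of 25.5 to 566 CPM overlapping the NG2-dsRed+ range of 7.10 to 54.4 CPM. Cd14 was lower in PSCs (log2 -2.03 ± 0.59, adjusted p = 0.0061), and without PSC library 31 its value was -2.75. C1qc (-1.53 ± 0.56, adjusted p = 0.0266) and Csf1r (-0.98 ± 0.39, adjusted p = 0.0438) were past the threshold in that fit and not in the fit of these cell types alone, and Cd68 (-0.20 ± 0.41, adjusted p = 0.733) was not past it. For the genes that entered through the S100β-GFP+ libraries the log2 values were -2.39 ± 0.53 for C1qb (45 counts in PSCs and 208 in NG2-dsRed+ cells), -1.74 ± 0.52 for C1qa (24 and 71 counts), -1.46 ± 0.53 for Fcer1g (56 and 136 counts), -1.41 ± 0.65 for Mrc1 (40 and 89 counts) and -1.12 ± 0.53 for Ptprc (84 and 158 counts). For all 10 genes the libraries of the cell types overlapped, while every PSC library lay above every NG2-dsRed+ library for 5.08% of all genes tested and below for 8.83%.

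Of the 5 genes with enough counts, Lyz2 was past the threshold in 35 of 35 alternative fits (leaving out each library in turn, other tests, scalings and sets of libraries) and Cd14 in 34 of 35, the exception being limma-voom. C1qc was past it in 27 of 35 and Csf1r in 18 of 35. Leaving out NG2-dsRed+ library 28, PSC library 4 or PSC library 34 moved both C1qc and Csf1r to the other side of the threshold. Without PSC library 36 Csf1r (adjusted p = 0.0502) and C1qc (adjusted p = 0.0604) were no longer past it by edgeR. The log2 values without that library were -1.79 for Ptprc and -1.82 for Mrc1. Both genes entered the test only through the S100β-GFP+ libraries, so nothing is read from these values.

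Lyz2 is set against the summed level of the other 9 genes as a description. In S100β-GFP+ libraries its CPM were between 1.73 and 3.00 times the summed CPM of the other 9 (median 2.37). In PSC libraries they were between 1.91 and 87.3 times that sum (median 14.7), and 8 of 9 PSC libraries lay above the highest S100β-GFP+ ratio. The NG2-dsRed+ ratios ran from 0.472 to 2.34 (median 1.02), with 7 of 10 libraries below the lowest S100β-GFP+ ratio. Without Lyz2 the summed level was between 2.59 and 15.4 CPM in PSC libraries, between 9.11 and 33.8 CPM in NG2-dsRed+ libraries and between 501 and 3673 CPM in S100β-GFP+ libraries. Each of the 9 had 269 counts or fewer over all PSC libraries. Ptprc, C1qa, C1qb, Mrc1 and Fcer1g among them entered the test only through the S100β-GFP+ libraries. Nothing is therefore read from how many libraries lay outside the S100β-GFP+ ratios.

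**Figure D3:**
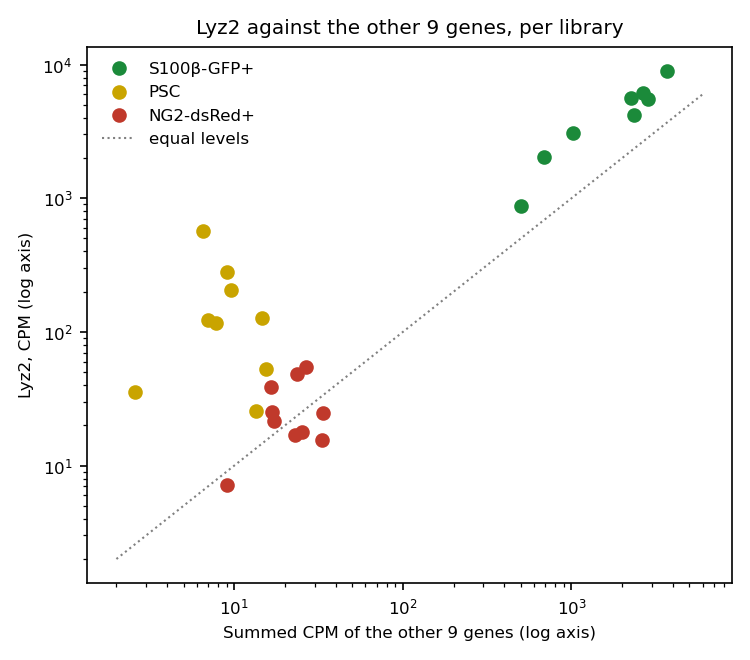
Lyz2 in each library (CPM) against the summed CPM of the other 9 genes, both on log axes, with 1 point per library and a dotted line where both are equal. S100β-GFP+ libraries lie a little above the line, NG2-dsRed+ libraries around it, and PSC libraries rise up to 87.3 times above it at low sums of the other genes.

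The level of the set varied between S100β-GFP+ libraries in a shared way. From the lowest to the highest library it spanned from 5.28-fold for C1qa to 10.2-fold for Lyz2. All 10 genes were lowest in library 22, and for all 10 the 3 lowest libraries were 14, 17 and 22, which was so for 10.7% of all genes tested. Their summed level was between 1369 and 4102 CPM in these 3 libraries and between 6560 and 12570 CPM in the other 5. Library 3 was highest for 8 genes and library 11 for the other two, C1qa and C1qc. With only libraries 14, 17 and 22 kept, 10 of 10 genes were still higher in S100β-GFP+ cells than in PSCs (log2 3.56 to 8.03) and than in NG2-dsRed+ cells (3.80 to 6.20), and without these 3 libraries the values were 5.16 to 9.67 and 5.56 to 7.80.

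Some transcripts of other cells moved with this split of the libraries. All 4 endothelial markers (Cdh5, Pecam1, Kdr and Tek) were highest in libraries 14, 17 and 22, at a summed 634 to 1824 CPM against 116 to 172 CPM in the other 5, and none of the 4 was at 0. Over all genes tested, 9.89% had their 3 highest levels in these libraries. Of 7 pericyte and smooth muscle markers 4 were highest there, with a summed 918 to 1504 CPM against 228 to 778 CPM. Of 5 erythroid markers 2, Hbb-bs and Alas2, were highest there. The 5 erythroid markers summed to between 21458 and 131265 CPM in these libraries and to between 24.9 and 25046 CPM in the other 5, ranges that overlap. The 4 fibroblast markers did not split this way (13288 to 19928 CPM against 9185 to 15065 CPM). The part of these transcripts in the levels of the 10 genes was not tested.

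**Figure D4:**
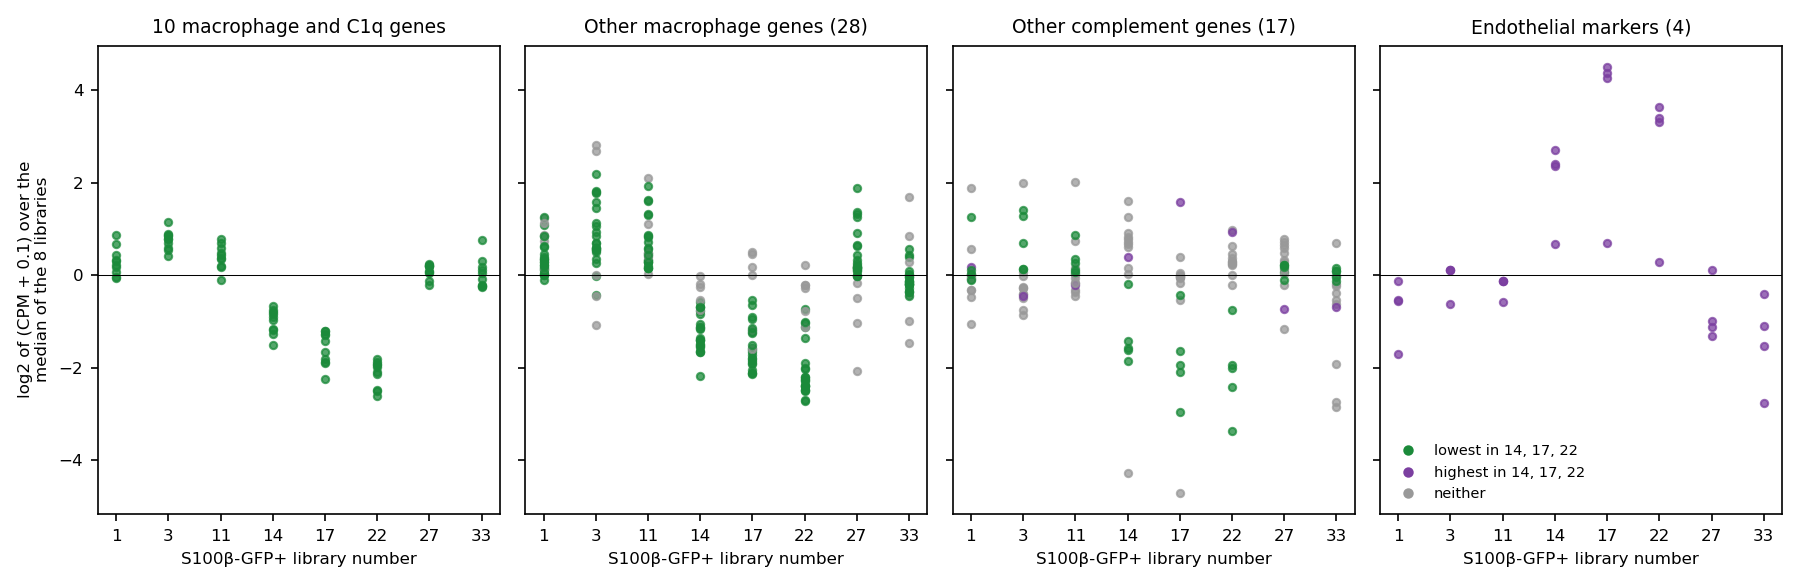
Level of genes in each of the 8 S100β-GFP+ libraries, as log2 of CPM plus 0.1 over the gene's median of the 8 libraries, for the 10 macrophage and C1q genes, 28 other macrophage genes, 17 other complement genes and 4 endothelial markers, with 1 point per gene and library. Green genes have their 3 lowest levels in libraries 14, 17 and 22 (10, 22, 5 and 0 genes), purple genes their 3 highest there, and grey genes neither.

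Other macrophage genes followed the set in most but not all cases. Of 31 listed, 28 were tested. Against PSCs 26 were higher in S100β-GFP+ cells and 1 was lower, where 24.1% and 22.9% of all genes tested were (median log2 difference 6.91, against -0.04 over all genes tested). The 4 most abundant were Ctss, a lysosomal protease (585 CPM in the median S100β-GFP+ library and 1.58 CPM in PSCs), Laptm5, a lysosomal protein of blood cells (580 and 0.908 CPM), Plek, a protein kinase C substrate of blood cells (476 and 3.43 CPM), and Cd52, a small surface glycoprotein of leukocytes (335 and 1.98 CPM). All 4 were past the threshold (edgeR, adjusted p from 3.20e-13 to 1.74e-07). Mertk, a receptor by which phagocytes bind dying cells, was the 1 lower gene, at 13.6 to 34.1 CPM in S100β-GFP+ libraries, 38.1 to 85.2 CPM in PSCs and 34.3 to 61.8 CPM in NG2-dsRed+ libraries, and its S100β-GFP+ libraries lay below every PSC and every NG2-dsRed+ library (5.24% and 4.38% of all genes tested lay so against the one or the other). Its log2 difference of S100β-GFP+ cells was -1.47 to PSCs (adjusted p = 2.49e-07) and -1.02 to NG2-dsRed+ cells (adjusted p = 7.82e-05). Lyve1, a hyaluronan receptor of lymphatic vessels and some resident macrophages, did not pass (log2 -0.36, adjusted p = 0.755), and its highest level was 65.8 CPM in a PSC library.

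Against NG2-dsRed+ cells 24 of the 28 were higher in S100β-GFP+ cells, where 18.1% of all genes tested were. Mertk was lower and Irf8, Lyve1 and Lst1 did not pass. Between PSCs and NG2-dsRed+ cells 2 were higher in PSCs and 8 lower, where 20.9% and 23.1% of all genes tested were. Some of the 8 had few counts in both cell types, such as Spi1 (9 counts in PSCs and 62 in NG2-dsRed+ cells) and Ccr2 (10 and 50). Nothing is read from the count of 8. The 2 higher genes were Mertk (log2 0.45, adjusted p = 0.0373) and Fcgr2b, the inhibitory Fc receptor. Fcgr2b was at 2.53, 7.83 and 31.2 CPM in the lowest, median and highest PSC library and at 0.154, 0.774 and 1.95 CPM in NG2-dsRed+ libraries. Every PSC library thus lay above every NG2-dsRed+ library, which held for 5.08% of all genes tested. The log2 difference of Fcgr2b was 3.53 (edgeR, adjusted p = 1.18e-06), and S100β-GFP+ libraries, at 28.8 to 292 CPM, were higher than PSCs again (log2 3.84, adjusted p = 5.73e-08).

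The other complement genes fell into unlike patterns. Of 29 listed, 12 did not pass the filter on low counts. Against PSCs 15 of the 17 tested were higher in S100β-GFP+ cells, Cd59a was lower and Cfd did not pass. Of all genes tested, 24.1% were higher in S100β-GFP+ cells in that comparison and 22.9% lower. Serping1, the inhibitor of the C1 proteases, was at 375, 682 and 1276 CPM in the lowest, median and highest S100β-GFP+ library, at 25.3, 41.6 and 88.0 CPM in PSCs and at 270, 381 and 438 CPM in NG2-dsRed+ cells. C1s1, a protease that acts with C1q, was at 227 CPM in the median S100β-GFP+ library, 27.2 CPM in PSCs and 345 CPM in NG2-dsRed+ cells, and its difference between S100β-GFP+ and NG2-dsRed+ cells was not past the threshold (log2 -0.45, adjusted p = 0.128). Serping1 and C1s1 were thus at 230 CPM or more in every NG2-dsRed+ library, in which the C1q chains were at 7.00 CPM or less. C1s1 has a near copy, C1s2, so its counts may be split.

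C3, the central complement protein, was at 53.3, 354 and 846 CPM in the lowest, median and highest S100β-GFP+ library, at 0, 0.626 and 5.44 CPM in PSCs and at 1.70, 5.48 and 65.4 CPM in NG2-dsRed+ cells. Cfp, properdin, which stabilizes the alternative pathway and is made by white blood cells, was at 34.9, 362 and 873 CPM in S100β-GFP+ libraries and at 5.52 CPM or less in all others. The log2 difference to PSCs was 7.68 for C3 (edgeR, adjusted p = 1.94e-08) and 6.85 for Cfp (adjusted p = 4.06e-12). Libraries 14, 17 and 22 were the 3 lowest S100β-GFP+ libraries for 5 complement genes, Cfp, the receptors C3ar1 and C5ar1, and the integrin chains Itgax and Itgb2 of the complement receptors, and for none of the other 12, which include C3, Serping1 and C1s1.

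Cd59a, which blocks the membrane attack complex on a cell's own surface, was the complement gene highest in PSCs, at 83.5, 172 and 271 CPM in the lowest, median and highest PSC library, at 8.01, 13.3 and 40.2 CPM in S100β-GFP+ libraries and at 12.9, 35.2 and 54.6 CPM in NG2-dsRed+ libraries. No PSC library overlapped the others. Of all genes tested, 5.24% had every PSC library above every S100β-GFP+ library and 5.08% above every NG2-dsRed+ library. S100β-GFP+ cells were lower than PSCs by a log2 difference of -3.33 (edgeR, adjusted p = 1.48e-09), and PSCs were higher than NG2-dsRed+ cells by 2.27 (adjusted p = 1.86e-07). Higher in PSCs than in NG2-dsRed+ cells were also C4b, the complement protein cut by C1s (log2 2.14, adjusted p = 6.26e-05, 5.06 to 36.9 CPM in PSCs), and Cfd, the protease of the alternative pathway (log2 6.07, adjusted p = 0.0010), whose PSC values ran from 0 to 45.1 CPM with a median of 0.175 CPM. C4b has a near copy, C4a. Cd59a, C4b and Cfd were the 3 of 17 tested complement genes higher in PSCs than in NG2-dsRed+ cells, and 11 were lower. Among the 11 were C1s1 (log2 -3.80) and Serping1 (log2 -3.05). Over all genes tested, 20.9% were higher in PSCs in that comparison and 23.1% lower. Some of the 11 had few counts in both cell types, such as C5ar1 (20 counts in PSCs and 48 in NG2-dsRed+ cells). Nothing is read from the count of 11. Against NG2-dsRed+ cells, 14 of 17 complement genes were higher in S100β-GFP+ cells, where 18.1% of all genes tested were and 15.2% were lower. Cd59a and Cr1l, a regulator that limits complement on the cell surface, were lower and C1s1 did not pass.

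**Figure D5:**
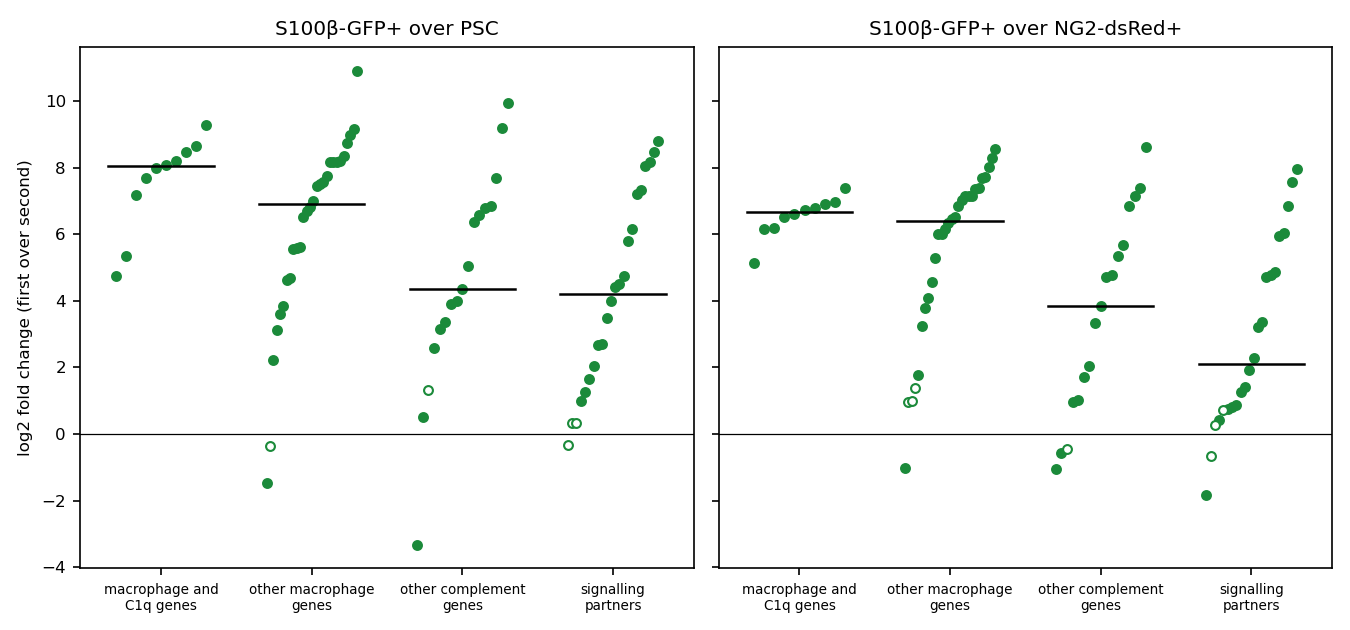
Log2 fold changes of S100β-GFP+ cells over PSCs (left) and over NG2-dsRed+ cells (right) for the tested genes of 4 lists, with 1 point per gene, open where the adjusted p was 0.05 or more, and a line at the median of each list. The medians over PSCs are 8.04, 6.91, 4.36 and 4.21 from the macrophage and C1q genes to the signalling partners.

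The partners of the receptors were tested from a list of 24 genes, 22 of which passed the filter. In S100β-GFP+ cells 19 were higher than in PSCs and none lower, where 24.1% and 22.9% of all genes tested were. Ticam1, Lck and Fyn did not pass (log2 0.33, -0.33 and 0.33). Of the 4 most abundant, Tyrobp, an adaptor that works beside Fcer1g, was at 192 CPM in the median S100β-GFP+ library and 0.701 CPM in PSCs (log2 7.33, edgeR, adjusted p = 7.86e-10), and Fcgr3, an Fc receptor that needs the gamma chain, at 213 and 0.316 CPM (log2 8.81, adjusted p = 8.22e-13). Lyn, a kinase of immune receptors, was at 107 CPM in S100β-GFP+ cells, 18.3 CPM in PSCs and 75.3 CPM in NG2-dsRed+ cells, and Fyn, a kinase found in many cell types, at 119, 104 and 77.4 CPM. Fyn was the 1 partner higher in PSCs than in NG2-dsRed+ cells (log2 0.48, adjusted p = 0.0072), where 11 were lower. Of all genes tested, 20.9% were higher in PSCs in that comparison and 23.1% lower. Some of the 11 had few counts in both cell types, such as Fcgr1 (0 counts in PSCs and 13 in NG2-dsRed+ cells) and Fgr (7 and 32). Nothing is read from the count of 11.

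The ligands of Csf1r and the receptor that works with Cd14 are given by their place in the pathway, with their values known. Csf1 was at 52.7, 81.5 and 134 CPM in the lowest, median and highest S100β-GFP+ library, at 11.2, 13.4 and 16.6 CPM in PSCs and at 16.8, 24.5 and 30.1 CPM in NG2-dsRed+ cells. Its S100β-GFP+ libraries stood above all others (log2 2.66 to PSCs, edgeR, adjusted p = 1.12e-13), which held for 4.92% of all genes tested. Il34, the other ligand, was highest in NG2-dsRed+ cells, at 40.8 to 123 CPM against 7.75 to 54.3 CPM in S100β-GFP+ libraries and 2.98 to 11.6 CPM in PSCs, and it was the 1 partner lower in S100β-GFP+ than in NG2-dsRed+ cells (log2 -1.82, adjusted p = 2.81e-05). Tlr4 had medians of 26.8 CPM in S100β-GFP+ libraries, 2.68 CPM in PSCs and 9.84 CPM in NG2-dsRed+ libraries.

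Markers of other white blood cells were counted in the same libraries. The 8 T and NK cell markers summed to between 1.74 and 9.05 CPM in S100β-GFP+ libraries, the 5 B cell markers to between 1.11 and 24.5 CPM and the 6 neutrophil markers to between 0.444 and 6.86 CPM, with Ly6g at 0. Neutrophil genes were highest in an NG2-dsRed+ library, where they summed to 316 CPM. The 5 mast cell markers summed to between 2.87 and 42.0 CPM in S100β-GFP+ libraries, and of these only Kit was tested. Dendritic cell markers were present in S100β-GFP+ libraries (30.3 to 413 CPM summed over 6 genes), led by Cd209a, a lectin of monocyte-derived dendritic cells, with a median of 43.9 CPM against 0 CPM in PSCs and 0.212 CPM in NG2-dsRed+ cells (log2 8.99 to PSCs, edgeR, adjusted p = 3.85e-10). Ccr7, a chemokine receptor of migrating dendritic cells, was also higher (log2 6.58, adjusted p = 2.63e-08). The other two tested went another way against NG2-dsRed+ cells: Zbtb46, a transcription factor of dendritic and endothelial cells, was lower in S100β-GFP+ cells (medians of 14.8 and 36.5 CPM, log2 -1.04, adjusted p = 0.0157), and Clec9a, a receptor for dead cells, did not pass (log2 0.35, adjusted p = 0.740). The part of such cells in the levels of the 10 genes was not tested. The 3 satellite cell markers were at 22.5 CPM or less in sum in every S100β-GFP+ library.

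The genes whose levels followed the mean of the 10 most closely, after the mean of each cell type was removed, were Ctsz, Cd226, Ccl9, Tep1, Olfm1, Irf5, Clec4a2, Ccl6, Il1rl1 and H2-DMb1 (Pearson r from 0.796 to 0.844 over 27 libraries). The libraries share their depth and the split of the S100β-GFP+ libraries, and without libraries 14, 17 and 22 the values were between 0.510 and 0.698 over 24 libraries. Of these genes Ccl6 and Ccl9, chemokines of myeloid cells, had medians of 843 and 445 CPM in S100β-GFP+ libraries and below 4 CPM in both other cell types, Irf5, a transcription factor of inflammatory macrophages, had 77.4 CPM against 0.626 CPM in PSCs, and Ctsz, a lysosomal protease, was found in every cell type (381 CPM, 125 CPM in PSCs and 125 CPM in NG2-dsRed+ cells).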

How the data were processed

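RNA of S100β-GFP+ cells (8 libraries), PSCs (9) and NG2-dsRed+ cells (10) was measured by RNA-seq after SMART-Seq v4 amplification. The authors trimmed reads with ea-utils and Btrim and deposited HTSeq counts per gene as whole numbers without normalization. HISAT2, HTSeq and GRCm38 are named in the submitters' processing notes. For the tool versions, the annotation and the strand setting, the sources used here give nothing. The paper describes fewer S100β-GFP+ replicates than there are columns and does not name any that was left out, so all 8 columns were used. Libraries were grouped by their labels. No column was identical to another, and the most alike pair still differed by more than sampling noise (8.10 as chi-square over its degrees of freedom). Depth was between 5221655 and 9592875 counts. Reads copied by PCR look like separate molecules, so genes with few counts carry more error than counting alone gives.

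Counts were filtered with filterByExpr (minimum count 10, which kept 15330 genes), scaled by TMM and tested with edgeR 4.0.16 in R 4.3.3, in 1 quasi-likelihood fit of all 27 libraries and Benjamini-Hochberg adjustment at 0.05 over all genes tested. The SE was the log2 fold change over the square root of F. Log2 levels used a prior count of 2. The pipeline was tested on simulated counts. Symbols, positions and exon lengths came from GENCODE M21 (GRCm38), which holds 99.6% of the identifiers, and promoter windows from RefSeq. P-values measure the spread between libraries, each of 1 mouse. Whether libraries of different cell types came from the same mice is not known, and the fit treats all libraries as independent. The 10 genes, the lists of other genes and the libraries set apart were chosen with earlier results of these data known. Beside the 10 genes, the text names the up to 4 most abundant tested genes of a list, genes past the threshold where 5 or fewer were, and the 10 genes most alike over the libraries. Csf1, Tlr4, Lyz1, the 5 complement genes lowest in the same libraries, and genes that did not pass were named with their values known.

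The alternatives were the Wald test of DESeq2 1.42.0, which is the test of the paper, its size factors within edgeR, a fit with no filter, only the compared cell types in a fit, limma-voom (limma 3.58.1) with sample quality weights, a term for how much of a library fell on Lars2, Gm23935 and Gm15564, a fit without S100β-GFP+ libraries 14, 17 and 22, and leaving out each library in turn. A fit with only these 3 S100β-GFP+ libraries was added after seeing the data.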

Additional observations from a re-analysis of the deposited data

Results flagged for a closer look

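In the 30 sets of libraries tested (10 genes in 3 cell types), 1 value lay apart from the rest by Dixon's test, which chance alone gives in about 1 of 20 sets. Ptprc was at 4.32 CPM in PSC library 36, and the gap to the next PSC library was 0.512 of the range of the 9 PSC libraries on the log2 scale.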

How the results depend on the processing

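The 10 genes were higher in S100β-GFP+ cells than in PSCs and than in NG2-dsRed+ cells in all 8 alternative fits, and 10 of 10 with each library left out in turn. Between PSCs and NG2-dsRed+ cells 7 were past the threshold, 3 of them tested only through the S100β-GFP+ libraries, against 2 of 5 with only these cell types in the fit, 2 with limma-voom (Lyz2 and C1qb) and between 4 and 8 with a library left out. The Cd68 difference ranged from -0.49 to 0.012 log2 units with a library left out and turned direction (0.012) without PSC library 18. Of other macrophage genes between PSCs and NG2-dsRed+ cells 10 differed, where 44% of all genes tested did, and 6 with limma-voom. Of other complement genes between PSCs and S100β-GFP+ cells 16 differed, where 47% of all genes tested did, and 25 without the filter, which let 29 be tested. With a library left out the ranges against S100β-GFP+ cells were 25 to 27 macrophage genes, 16 to 18 complement genes and 19 to 20 partners for PSCs, and 24 to 26, 15 to 18 and 18 to 20 for NG2-dsRed+ cells. Between PSCs and NG2-dsRed+ cells they were 8 to 11, 12 to 14 and 10 to 12. The cause of these changes was not tested beyond the number of genes or libraries in a fit. Depth limits what can be said of the 9 genes other than Lyz2 in PSCs, which had 269 counts or fewer each over all PSC libraries. No paired analysis was possible because the labels give every library its own number, so no number is shared between cell types.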
